A study of Mus musculus with 12 samples.

Results

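The genes described here are 38 listed type I interferon stimulated genes of the mouse, each represented by its brightest probe set on average across 12 expression arrays. A probe set that the annotation gives to 1 gene alone existed for 35 of them, and all 35 were among the 15493 genes tested. Ifi44 is not named by such a probe set, and Isg15 and Trex1 share theirs with other genes, so no value is given for these 3. Total RNA came from whole subcutaneous tumours that grew in the right flank of female 129sv/ev mice after inoculation of 344SQ cells, a mouse lung adenocarcinoma line. The 4 groups were tumours of an anti-PD-1 resistant 344SQ line under anti-PD-1, tumours of that line under control IgG, tumours of the parental 344SQ line under anti-PD-1 and parental tumours under control IgG. Antibodies were given at 10 mg/kg on days 4 and 7 and tumours were taken on day 11. Each group had 5 mice and 3 arrays, and the labels do not say which mice lie behind an array, so a p-value covers the spread between arrays and nothing beyond it. The labels also do not say how the resistant cells were derived or whether they are a clone. PD-1 is an inhibitory receptor of T cells, and these host mice have an immune system of their own.

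Type I interferons, the interferon alphas and interferon beta, are secreted when a cell senses foreign or misplaced nucleic acid, and they act through a receptor made of Ifnar1 and Ifnar2. The receptor's kinases Jak1 and Tyk2 activate a complex that contains Stat2 and Irf9, which enters the nucleus and binds a promoter element called the interferon stimulated response element (ISRE). The induced genes encode nucleic acid sensors, antiviral effectors and factors that amplify or damp the signal, and in tumours they are expressed by malignant, immune and stromal cells alike. In RNA from whole tumours, fewer cells of a type and less RNA per cell cannot be told apart.

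The promoters of these genes were searched for the letters of the element. RefSeq promoter windows of assembly GRCm38.p6, 250 bases before to 50 bases after a gene's start, were matched for 28 of the 38 listed genes. The ISRE core GAAANNGAAA, searched on both strands (TTTCNNTTTC on the other), occurred in 12 of the 28 (42.9%), against 1079 of 27025 genes with a window (3.99%). The GAS element TTCNNNGAA, the sequence to which Stat dimers bind and which reads the same on both strands, occurred in 7 of the 28 (25%), against 2582 of all genes (9.55%), and in Bst2 and Ifitm3 it overlapped an ISRE match. A match describes letters in a window and is neither a site nor a cause. Stretches of 7 promoters, 5′ to 3′ on the gene's own strand, are shown because these members carry the results below or hold a pair of matches, with every ISRE core in capitals:

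Ifit1: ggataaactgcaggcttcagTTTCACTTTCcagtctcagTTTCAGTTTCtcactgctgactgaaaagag

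Ifit3: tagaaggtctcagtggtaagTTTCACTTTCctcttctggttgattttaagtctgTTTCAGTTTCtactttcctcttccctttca

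Oas3: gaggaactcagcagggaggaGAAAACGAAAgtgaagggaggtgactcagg

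Stat2: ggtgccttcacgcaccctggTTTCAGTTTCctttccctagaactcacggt

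Rsad2: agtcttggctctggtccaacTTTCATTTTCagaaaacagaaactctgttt

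Bst2: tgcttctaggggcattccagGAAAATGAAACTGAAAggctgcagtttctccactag

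Ddx60: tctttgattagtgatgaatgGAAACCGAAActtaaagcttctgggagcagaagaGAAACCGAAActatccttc

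The stretches lie at chr19:34640765-34640833 on the plus strand for Ifit1, chr19:34583353-34583436 on the plus strand for Ifit3 and chr5:120777705-120777754 on the minus strand for Oas3. Those of the other promoters lie at chr10:128270256-128270305 on the plus strand for Stat2, chr12:26456543-26456592 on the minus strand for Rsad2, chr8:71537567-71537622 on the minus strand for Bst2 and chr8:61928014-61928086 on the plus strand for Ddx60. In Ifit1 and Ifit3, both on chromosome 19, and in Stat2 and Rsad2 the cores sit on the opposite strand. In Bst2 the cores overlap, and in Ddx60 both copies have the same letters and begin 53 and 19 bases before the start.

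Levels are the deposited log2 values, and differences are resistant minus parental or anti-PD-1 minus IgG on the log2 scale, so that -1 is a level lower by a factor of 2. Each difference is given with its standard error and the adjusted p of limma (Benjamini-Hochberg over all 15493 genes), and a gene is said to have passed where this p is under 0.05. The mean over the 35 members was 5.78, 5.82 and 6.62 on resistant arrays under anti-PD-1 and 5.77, 5.91 and 6.05 under IgG, against 6.48, 7.29 and 7.69 on parental arrays under anti-PD-1 and 5.71, 6.98 and 7.03 under IgG. Parental IgG replicate 1 stood at the level of the resistant tumours. It was below the other 5 parental arrays for 34 of 35 members and the lowest of all 12 arrays for 12. Parental anti-PD-1 replicate 3 was the highest of all 12 arrays for 26 members, and resistant anti-PD-1 replicate 3 was above the other 5 resistant arrays for 31. The median SD between replicates of a member was 0.41 on resistant arrays under anti-PD-1, 0.18 on resistant arrays under IgG, 0.67 on parental arrays under anti-PD-1 and 0.70 on parental arrays under IgG, where the median over all genes was 0.10, 0.12, 0.16 and 0.12 in the same groups. Results that rest on these arrays are therefore also given without parental IgG replicate 1, without parental anti-PD-1 replicate 3, or without both.

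**Figure D1:**
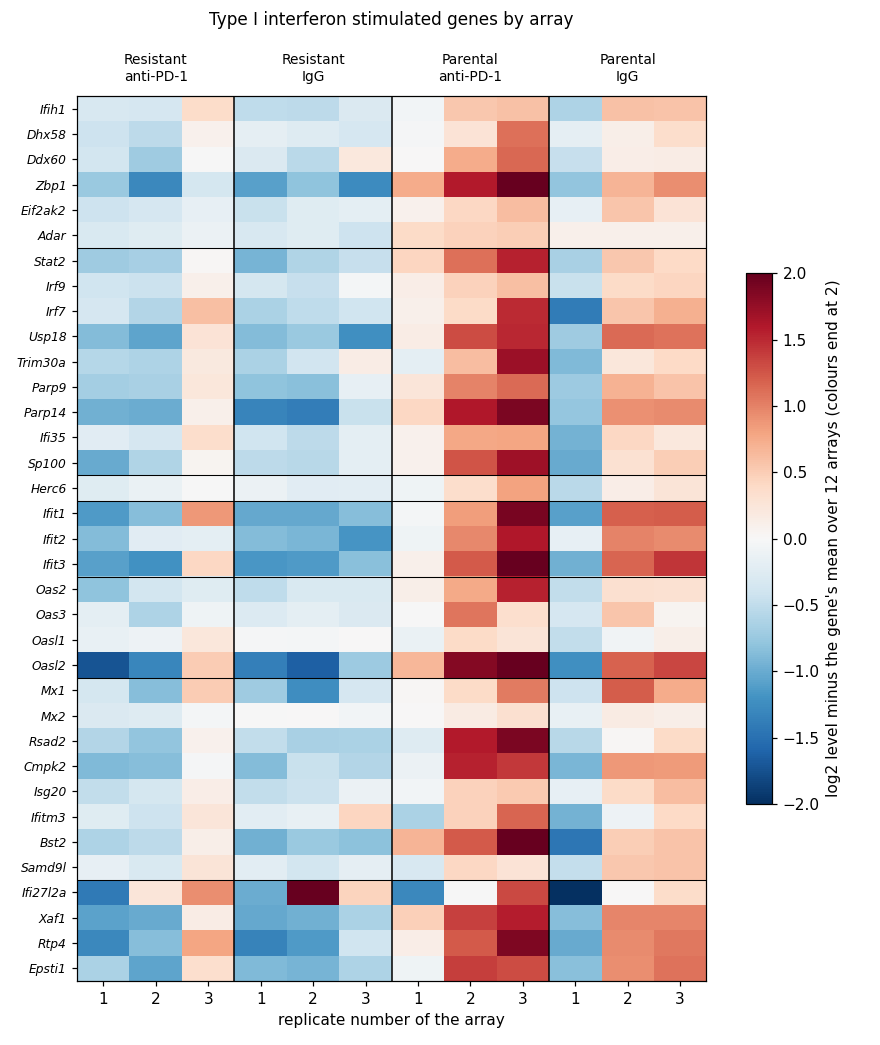
Log2 level of each of the 35 members (rows, grouped by role) on each of the 12 arrays (columns), drawn as the deviation from that gene's mean over the 12 arrays. Parental IgG replicate 1, with a mean over the members of 5.71, looks like the resistant arrays, and parental anti-PD-1 replicate 3, with 7.69, is the highest.

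Of the 35 members, 18 were lower in resistant than in parental tumours under anti-PD-1 and none was higher, with a median difference of -1.04 and all 35 negative, where 11.9% of all genes tested were lower and the median over all genes was 0.07. Under control IgG 2 members were lower, Adar and Ifit2, with a median of -0.54 and 32 of 35 negative, and 7.31% of all genes were lower. All 10 skeletal muscle markers were negative under anti-PD-1 as well, with a median of -2.38, and positive under IgG, with a median of 0.73, and 0 of 10 passed in either comparison (limma, with 6 and 0 at an unadjusted p under 0.05). Averaged over both antibodies 24 members were lower, with a median of -0.84 and 34 of 35 negative, against 15.0% of all genes. The differences under anti-PD-1 and under IgG share no array, but their tests are not independent. The spread behind every p-value was estimated from all 12 arrays together. The average uses the arrays of both antibodies. In all, 26 members passed in at least 1 comparison and 9 in none, namely Herc6, Ifi27l2a, Ifi35, Ifih1, Ifitm3, Irf7, Oasl1, Samd9l and Trim30a. The 3 resistant arrays lay below the 3 parental arrays for 16 members under anti-PD-1, where 15.8% of all genes did so, and for 5 under IgG (Zbp1, Eif2ak2, Adar, Usp18 and Ifit2), where 15.2% of all genes did so.

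**Figure D2:**
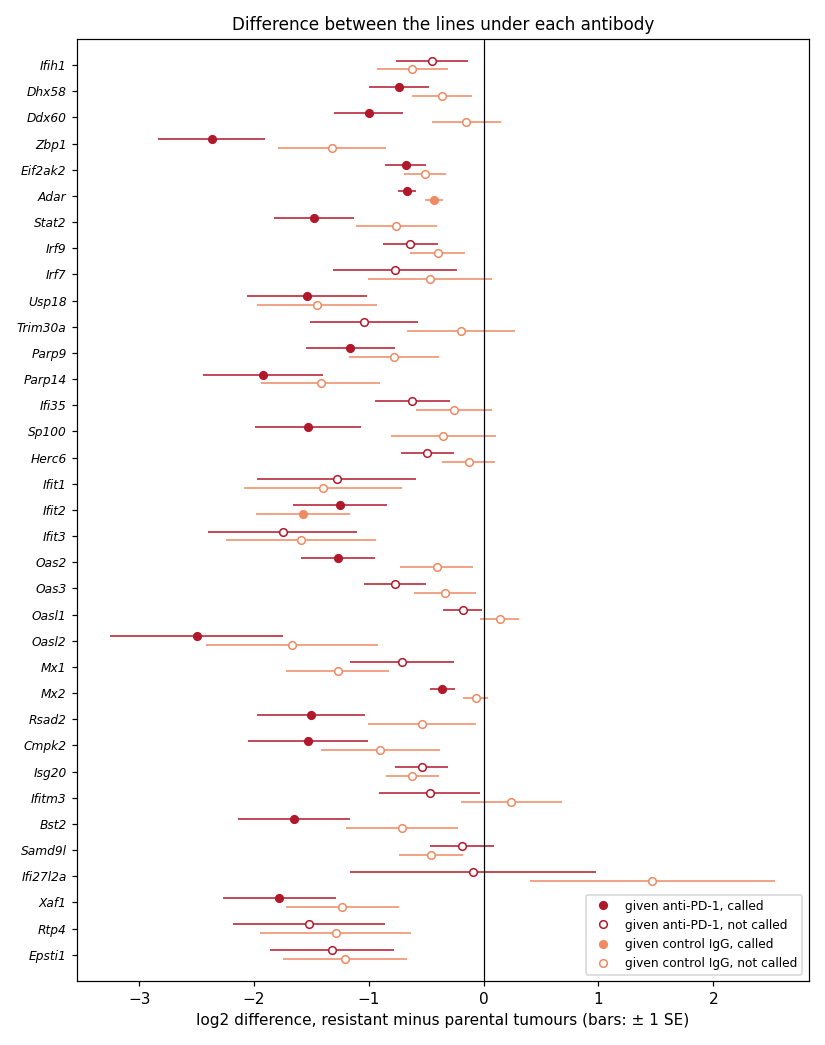
Difference of each of the 35 members, resistant minus parental on the log2 scale with its standard error, under anti-PD-1 and under control IgG; filled points passed the test. All 35 differences under anti-PD-1 and 32 under IgG are negative, and 18 and 2 passed.

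The sensors of nucleic acid and the proteins that act on double-stranded RNA were lower in resistant tumours, 5 of the 6 measured under anti-PD-1, 1 under IgG and 4 in the average of both. Of all genes 11.9%, 7.31% and 15.0% were lower in these comparisons, and the same shares apply to the role groups that follow. Zbp1, a sensor of left-handed nucleic acid that can trigger necroptosis, had log2 levels of 5.20, 4.66 and 5.59 on resistant arrays under anti-PD-1 and 4.86, 5.13 and 4.68 under IgG, against 6.69, 7.53 and 8.33 on parental arrays under anti-PD-1 and 5.15, 6.62 and 6.87 under IgG. Every resistant array lay below the parental arrays of the same antibody, although parental IgG replicate 1 was within the resistant range. The difference was -2.37 (SE 0.47, adjusted p = 0.00343) under anti-PD-1, a 5.16-fold lower level, and -1.32 (SE 0.47, adjusted p = 0.0783) under IgG. Adar, which edits adenosine to inosine in double-stranded RNA, stood at 6.87, 6.94 and 7.07 on resistant arrays under anti-PD-1 and 6.86, 6.94 and 6.76 under IgG, against 7.57, 7.65 and 7.67 on parental arrays under anti-PD-1 and 7.28, 7.28 and 7.29 under IgG. All 6 resistant arrays lay below all 6 parental arrays, and parental IgG replicate 1 did not stand apart for this gene. Its difference was -0.67 (SE 0.08, adjusted p = 0.000204) under anti-PD-1 and -0.43 (SE 0.08, adjusted p = 0.00502) under IgG. Adar and Ifit2 were the 2 members whose 6 resistant arrays lay below all 6 parental arrays, which held for 6.65% of all genes.

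Eif2ak2, the kinase PKR that halts translation when it binds double-stranded RNA, had levels of 6.73, 6.80 and 6.98 on resistant arrays under anti-PD-1 and 6.70, 6.89 and 6.95 under IgG, against 7.23, 7.55 and 7.76 on parental arrays under anti-PD-1 and 6.98, 7.69 and 7.41 under IgG. The lines did not overlap under either antibody, with differences of -0.68 (SE 0.18, adjusted p = 0.0141) under anti-PD-1 and -0.51 (SE 0.18, adjusted p = 0.0719) under IgG, the second short of the threshold, and another of its probe sets pointed the other way under anti-PD-1. Dhx58 encodes LGP2, a regulator of the RNA helicase sensors, and was dimmer at 3.91, 3.79 and 4.40 on resistant arrays under anti-PD-1 and 4.14, 4.06 and 3.98 under IgG, against 4.30, 4.59 and 5.42 on parental arrays under anti-PD-1 and 4.14, 4.44 and 4.68 under IgG. Its groups overlapped, and it differed by -0.74 (SE 0.26, adjusted p = 0.048) under anti-PD-1 and -0.36 (SE 0.26, adjusted p = 0.359) under IgG, while another of its probe sets pointed the other way in both and in the average. Ddx60, a helicase reported to assist RNA sensing, gave 3.35, 3.01 and 3.71 on resistant arrays under anti-PD-1 and 3.43, 3.18 and 3.94 under IgG, against 3.73, 4.47 and 4.88 on parental arrays under anti-PD-1 and 3.26, 3.85 and 3.88 under IgG. The lines separated under anti-PD-1 at -1.0 (SE 0.30, adjusted p = 0.0268) and overlapped under IgG at -0.15 (SE 0.30, adjusted p = 0.769). Ifih1, which encodes the long double-stranded RNA sensor MDA5, ran from 6.91 to 8.12 over all arrays and did not pass, with -0.45 under anti-PD-1 and -0.62 under IgG.

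The transcription factors and signalling proteins were lower in resistant tumours for 5 of 9 members under anti-PD-1, for none under IgG (limma, 0 of 9, with 2 at an unadjusted p under 0.05) and for 6 of 9 in the average. Stat2, the subunit that gives the interferon complex its activating domain, had log2 levels of 5.02, 5.06 and 5.75 on resistant arrays under anti-PD-1 and 4.80, 5.13 and 5.27 under IgG, against 6.16, 6.83 and 7.27 on parental arrays under anti-PD-1 and 5.08, 6.27 and 6.13 under IgG. All 3 resistant arrays given anti-PD-1 lay below the 3 parental ones, whereas under IgG parental replicate 1 lay among the resistant arrays. The difference was -1.48 (SE 0.35, adjusted p = 0.00801) under anti-PD-1 and -0.76 (SE 0.35, adjusted p = 0.153) under IgG. Irf9, the subunit that recognises the ISRE, stood at 6.93, 6.90 and 7.42 on resistant arrays under anti-PD-1 and 6.97, 6.86 and 7.29 under IgG, against 7.46, 7.79 and 7.92 on parental arrays under anti-PD-1 and 6.87, 7.71 and 7.75 under IgG. It passed in the average of both antibodies alone, at -0.52 (SE 0.17, adjusted p = 0.0296). Usp18, which removes ISG15 from proteins and blocks the receptor as a feedback inhibitor, had levels of 4.18, 3.99 and 5.32 on resistant arrays under anti-PD-1 and 4.18, 4.31 and 3.82 under IgG, against 5.20, 6.35 and 6.56 on parental arrays under anti-PD-1 and 4.33, 6.18 and 6.14 under IgG. The resistant arrays given IgG lay just below parental replicate 1 and far below the other parental arrays, with differences of -1.54 (SE 0.52, adjusted p = 0.0426) under anti-PD-1 and -1.45 (SE 0.52, adjusted p = 0.082) under IgG.

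The ADP-ribosyltransferase family members Parp14 and Parp9 and the nuclear body protein Sp100 were lower under anti-PD-1, where the lines did not overlap for any of the 3. Parp14, which attaches single ADP-ribose units, had levels of 6.41, 6.38 and 7.47 on resistant arrays under anti-PD-1 and 6.05, 5.98 and 6.92 under IgG, against 7.79, 8.97 and 9.25 on parental arrays under anti-PD-1 and 6.60, 8.28 and 8.32 under IgG. It differed by -1.92 (SE 0.52, adjusted p = 0.0167) under anti-PD-1, 3.78-fold lower, and by -1.42 (SE 0.52, adjusted p = 0.0867) under IgG. Parp9 stood at 7.59, 7.62 and 8.49 on resistant arrays under anti-PD-1 and 7.46, 7.44 and 8.11 under IgG, against 8.52, 9.26 and 9.41 on parental arrays under anti-PD-1 and 7.55, 8.96 and 8.84 under IgG. Resistant anti-PD-1 replicate 3 came within 0.1 of the lowest parental array of that antibody, and the difference was -1.16 (SE 0.39, adjusted p = 0.0414). Sp100 had levels of 4.41, 4.81 and 5.48 on resistant arrays under anti-PD-1 and 4.90, 4.86 and 5.23 under IgG, against 5.51, 6.67 and 7.12 on parental arrays under anti-PD-1 and 4.41, 5.72 and 5.91 under IgG. It differed by -1.53 (SE 0.46, adjusted p = 0.0247) under anti-PD-1 and by -0.35 (SE 0.46, adjusted p = 0.627) under IgG. The remaining 3 did not pass in any comparison. Irf7, the factor that amplifies interferon alpha transcription, ran from 4.44 on parental IgG replicate 1 to 7.34 on parental anti-PD-1 replicate 3, with -0.77 under anti-PD-1 and -0.47 under IgG. Ifi35, a partner of the interferon-induced protein Nmi, gave -0.62 and -0.26 under the same antibodies, and Trim30a, a mouse TRIM protein that damps Toll-like receptor signalling, gave -1.04 and -0.20. Of the ISG15 system, Herc6, the main ligase of ISG15 in mice, stood at 5.92, 6.03 and 6.15 on resistant arrays under anti-PD-1 and 6.04, 5.93 and 5.95 under IgG, against 6.08, 6.51 and 6.97 on parental arrays under anti-PD-1 and 5.62, 6.29 and 6.41 under IgG. Herc6 did not pass, at -0.49 (SE 0.23, adjusted p = 0.122) under anti-PD-1 and -0.13 (SE 0.23, adjusted p = 0.715) under IgG. This rests on its brightest probe set, which gave -0.31 (SE 0.16) in the average of both antibodies. Other probe sets of Herc6 gave -0.33 (SE 0.14), -0.8 (SE 0.24) and -1.0 (SE 0.32) there.

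The 3 IFIT genes, which encode proteins that bind foreign RNA, were lower in resistant tumours in the average of both antibodies, and Ifit2 under each antibody too. Ifit2 had log2 levels of 5.62, 6.26 and 6.28 on resistant arrays under anti-PD-1 and 5.62, 5.57 and 5.30 under IgG, against 6.39, 7.45 and 8.08 on parental arrays under anti-PD-1 and 6.32, 7.47 and 7.42 under IgG. The highest resistant array was 6.28 and the lowest parental array 6.32, so the lines were separate by a narrow margin. The difference was -1.25 (SE 0.41, adjusted p = 0.0346) under anti-PD-1 and -1.57 (SE 0.41, adjusted p = 0.0248) under IgG. Ifit1, whose promoter holds a pair of ISRE cores, stood at 4.39, 4.67 and 6.40 on resistant arrays under anti-PD-1 and 4.51, 4.51 and 4.67 under IgG, against 5.49, 6.37 and 7.43 on parental arrays under anti-PD-1 and 4.44, 6.72 and 6.74 under IgG. Resistant anti-PD-1 replicate 3, at 6.40, was above the other resistant arrays, which lay between 4.39 and 4.67, and parental IgG replicate 1, at 4.44, was the lowest of the parental ones. Ifit1 passed in the average alone at -1.34 (SE 0.49, adjusted p = 0.0478). Ifit3, also with a pair of cores, gave 5.38, 5.27 and 6.89 on resistant arrays under anti-PD-1 and 5.31, 5.34 and 5.64 under IgG, against 6.58, 7.70 and 8.51 on parental arrays under anti-PD-1 and 5.52, 7.64 and 7.90 under IgG. The same 2 arrays departed from their groups, and the average differed by -1.67 (SE 0.46, adjusted p = 0.0147), a call that held whichever array was left out.

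Among the OAS genes, of which the catalytic members make oligoadenylates that switch on RNase L, 2 of 4 were lower in resistant tumours under anti-PD-1, none under IgG (limma, 0 of 4, with 1 at an unadjusted p under 0.05) and 3 in the average. Oasl2, an OAS-like gene, had the largest difference between the lines of all members under each antibody. Its levels were 3.27, 3.70 and 5.51 on resistant arrays under anti-PD-1 and 3.63, 3.37 and 4.28 under IgG, against 5.66, 6.84 and 7.48 on parental arrays under anti-PD-1 and 3.77, 6.18 and 6.34 under IgG. Resistant anti-PD-1 replicate 3 was the highest resistant array at 5.51, and parental IgG replicate 1, at 3.77, lay within the resistant range. The difference was -2.50 (SE 0.75, adjusted p = 0.025) under anti-PD-1, 5.66-fold lower, and -1.67 (SE 0.75, adjusted p = 0.146) under IgG. Oas2 stood at 5.62, 6.05 and 6.17 on resistant arrays under anti-PD-1 and 5.91, 6.12 and 6.11 under IgG, against 6.53, 7.17 and 7.95 on parental arrays under anti-PD-1 and 5.92, 6.74 and 6.72 under IgG. Under anti-PD-1 the lines were separate, at -1.27 (SE 0.32, adjusted p = 0.0117), and under IgG they overlapped, at -0.41 (SE 0.32, adjusted p = 0.399). Oas3 was dimmer at 4.03, 3.61 and 4.14 on resistant arrays under anti-PD-1 and 3.95, 4.04 and 3.94 under IgG, against 4.22, 5.30 and 4.56 on parental arrays under anti-PD-1 and 3.89, 4.78 and 4.29 under IgG, with an average difference of -0.56 (SE 0.19, adjusted p = 0.0401). Oasl1, which in mice restrains the translation of Irf7, ran from 5.69 to 6.57 and did not pass, at -0.18 under anti-PD-1 and 0.14 under IgG.

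**Figure D3:**
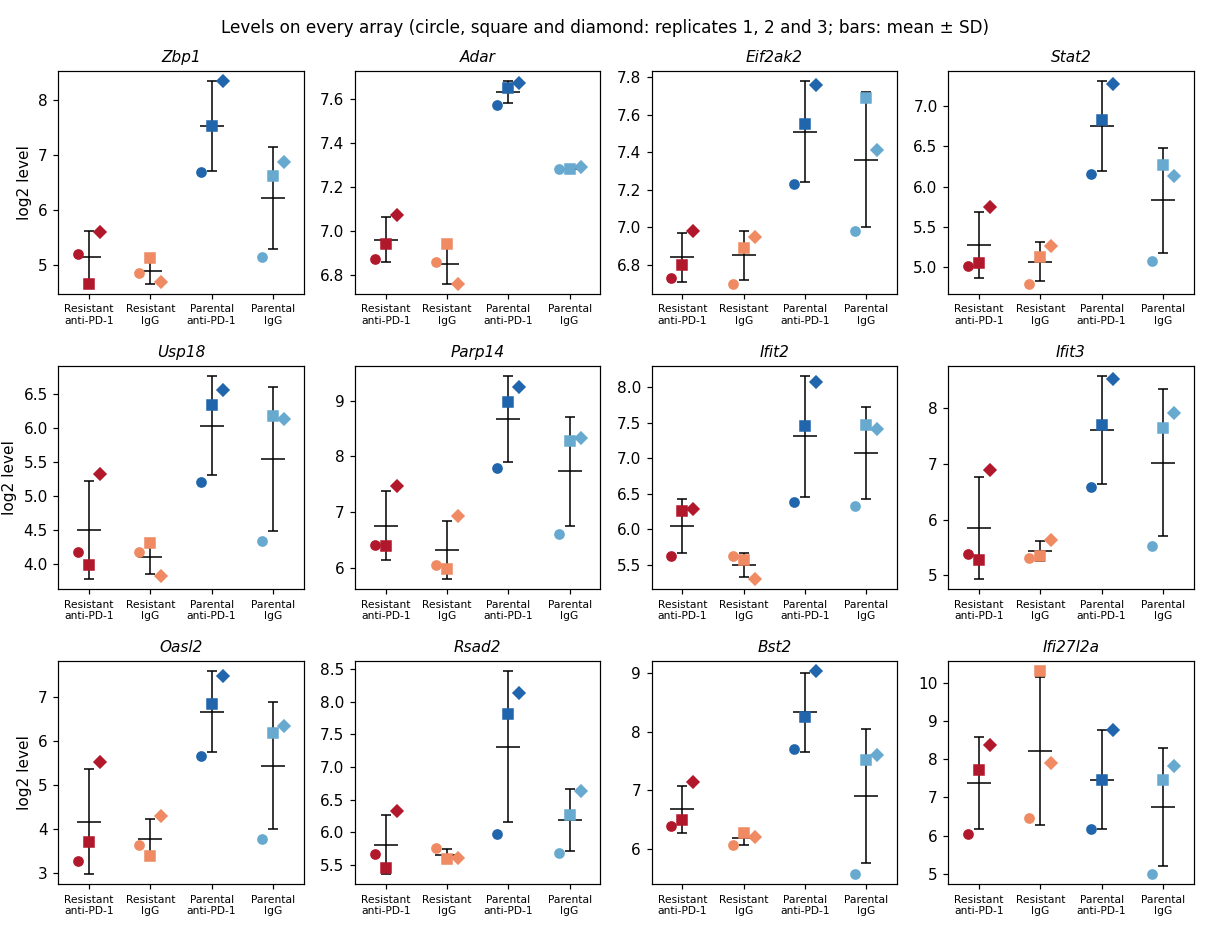
Log2 levels of 12 members by group, 1 point per array (circle, square and diamond for replicates 1, 2 and 3), with bars for the group mean ± SD. Parental IgG replicate 1 is the lowest point of its group in most panels, as for Oasl2 at 3.77 against 6.18 and 6.34 on the other 2 arrays, and Adar is an exception.

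Of 8 restriction factors and antiviral enzymes, 4 were lower in resistant tumours under anti-PD-1, none under IgG (limma, 0 of 8, with 2 at an unadjusted p under 0.05) and 5 in the average. Bst2, or tetherin, which holds budding virus at the cell surface, had log2 levels of 6.40, 6.50 and 7.14 on resistant arrays under anti-PD-1 and 6.07, 6.28 and 6.21 under IgG, against 7.70, 8.25 and 9.03 on parental arrays under anti-PD-1 and 5.58, 7.52 and 7.60 under IgG. The lines were separate under anti-PD-1, while under IgG parental replicate 1 was the lowest of all 12 arrays. The differences were -1.65 (SE 0.49, adjusted p = 0.024) and -0.71 (SE 0.49, adjusted p = 0.333) under those antibodies. Rsad2, or viperin, which makes a chain-terminating nucleotide, stood at 5.66, 5.45 and 6.32 on resistant arrays under anti-PD-1 and 5.75, 5.59 and 5.61 under IgG, against 5.98, 7.82 and 8.13 on parental arrays under anti-PD-1 and 5.68, 6.26 and 6.63 under IgG. Parental anti-PD-1 replicates 2 and 3 carried the high values, and replicate 1 of that group lay within the resistant range. Rsad2 differed by -1.50 (SE 0.47, adjusted p = 0.0307) under anti-PD-1 and -0.54 (SE 0.47, adjusted p = 0.452) under IgG. Cmpk2, a mitochondrial nucleotide kinase on chromosome 12 like Rsad2, gave 3.55, 3.58 and 4.40 on resistant arrays under anti-PD-1 and 3.56, 3.98 and 3.84 under IgG, against 4.31, 5.97 and 5.84 on parental arrays under anti-PD-1 and 3.51, 5.29 and 5.28 under IgG. Parental arrays other than replicate 1 of each antibody were at 5.28 or higher, and the differences were -1.53 (SE 0.52, adjusted p = 0.0417) under anti-PD-1 and -0.90 (SE 0.52, adjusted p = 0.252) under IgG, and another of its probe sets pointed the other way under IgG. In the average that other probe set gave -0.03 (SE 0.11), against -1.22 (SE 0.37) for the brightest one.

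The Mx genes encode dynamin-like GTPases that block viral replication. Mx1 had levels of 4.04, 3.54 and 4.89 on resistant arrays under anti-PD-1 and 3.67, 3.15 and 4.05 under IgG, against 4.41, 4.76 and 5.43 on parental arrays under anti-PD-1 and 3.97, 5.59 and 5.12 under IgG. The groups overlapped under both antibodies, and Mx1 passed in the average alone at -0.99 (SE 0.32, adjusted p = 0.0288). Mx2 varied little, at 4.23, 4.25 and 4.48 on resistant arrays under anti-PD-1 and 4.50, 4.53 and 4.46 under IgG, against 4.52, 4.68 and 4.84 on parental arrays under anti-PD-1 and 4.37, 4.68 and 4.64 under IgG. The lines were separate under anti-PD-1 by a small margin, at -0.36 (SE 0.11, adjusted p = 0.0295). Isg20, an exonuclease that degrades RNA, stood at 8.32, 8.46 and 8.95 on resistant arrays under anti-PD-1 and 8.32, 8.38 and 8.69 under IgG, against 8.75, 9.28 and 9.33 on parental arrays under anti-PD-1 and 8.64, 9.19 and 9.43 under IgG, and its average difference was -0.58 (SE 0.16, adjusted p = 0.016), which held whichever array was left out. Ifitm3, which blocks fusion of virus in endosomes, ran from 8.56 to 10.68, and Samd9l, a cytoplasmic antiviral and growth-restricting protein, from 8.18 to 9.23, and neither passed. Ifitm3 gave -0.47 under anti-PD-1 and 0.24 under IgG, where it was -0.19 with array weights, and Samd9l gave -0.19 and -0.46.

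The other induced genes included Xaf1, a partner of the apoptosis inhibitor XIAP, with levels of 5.90, 5.96 and 7.12 on resistant arrays under anti-PD-1 and 5.95, 6.01 and 6.34 under IgG, against 7.44, 8.33 and 8.54 on parental arrays under anti-PD-1 and 6.12, 7.94 and 7.94 under IgG. Xaf1 differed by -1.78 (SE 0.49, adjusted p = 0.0178) under anti-PD-1 and -1.23 (SE 0.49, adjusted p = 0.109) under IgG, and the lines overlapped under IgG alone. Rtp4, a chaperone of surface receptors, stood at 6.27, 6.71 and 8.35 on resistant arrays under anti-PD-1 and 6.22, 6.43 and 7.16 under IgG, against 7.70, 8.78 and 9.42 on parental arrays under anti-PD-1 and 6.56, 8.51 and 8.61 under IgG. Its resistant anti-PD-1 replicate 3, at 8.35, exceeded parental replicate 1 of that antibody, and it passed in the average alone at -1.41 (SE 0.47, adjusted p = 0.0329). This rests on the brightest probe set of Rtp4, and the other gave -0.16 (SE 0.18) in the average. Epsti1, an induced gene named for epithelial and stromal interaction, had levels of 5.80, 5.38 and 6.77 on resistant arrays under anti-PD-1 and 5.55, 5.51 and 5.81 under IgG, against 6.35, 7.82 and 7.74 on parental arrays under anti-PD-1 and 5.60, 7.37 and 7.52 under IgG. It passed in the average, at -1.26 (SE 0.38, adjusted p = 0.0219). Other probe sets of Epsti1 gave -1.14 (SE 0.40), -0.58 (SE 0.17) and -0.17 (SE 0.12) there. Ifi27l2a was the exception in direction, and its values are given because they were seen to depart from those of the other members. They were 6.04, 7.71 and 8.39 on resistant arrays under anti-PD-1 and 6.47, 10.32 and 7.90 under IgG, against 6.18, 7.46 and 8.78 on parental arrays under anti-PD-1 and 4.99, 7.47 and 7.83 under IgG. Resistant IgG replicate 2 was the highest of all 12 arrays, and on that array the mean of 6 adipocyte markers was 8.71, against 5.15 to 6.57 on the other resistant arrays and 4.42 to 6.98 on the parental arrays. The difference was -0.09 (SE 1.07, adjusted p = 0.956) under anti-PD-1, which turned to 0.01 with arrays centred on the median and 0.20 with array weights, and 1.47 (SE 1.07, adjusted p = 0.366) under IgG, and the part of adipocytes in it was not tested.

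The differences of members with and without an ISRE core covered overlapping ranges. Of 25 members with both a value and a promoter window, the 11 with an ISRE core had a median difference under anti-PD-1 of -1.04, from -1.75 to -0.45, with 5 that passed. The 14 without one had a median of -0.72, from -2.50 to -0.18, with 6 that passed. Oasl2 and Zbp1, with the largest differences, were not among the members with a match.

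Anti-PD-1 was compared with IgG within each line to ask how the treatment bears on these genes. In parental tumours 33 of 35 members were higher in direction after anti-PD-1, with a median difference of 0.58 against -0.01 over all genes, and 1 passed, Adar, where 1.23% of all genes tested rose. Adar differed by 0.35 (SE 0.08, adjusted p = 0.04), a 1.27-fold higher level, and 8 members had an unadjusted p under 0.05. Adar and Bst2 were the 2 members whose anti-PD-1 arrays lay above all 3 IgG arrays, against 9.12% of all genes. Bst2 gave 1.43 (SE 0.49, adjusted p = 0.126) and Zbp1 gave 1.30 (SE 0.47, adjusted p = 0.142), neither past the threshold. Rsad2 at 1.12 (SE 0.47, adjusted p = 0.196), Sp100 at 1.09 (SE 0.46, adjusted p = 0.196), Stat2 at 0.93 (SE 0.35, adjusted p = 0.153), Oasl2 at 1.23 (SE 0.75, adjusted p = 0.363) and Parp14 at 0.94 (SE 0.52, adjusted p = 0.323) also did not pass. The Adar call ended when any of 9 of the 12 arrays was left out, among them parental IgG replicate 1 and parental anti-PD-1 replicate 3. Without both arrays the median over the members was -0.10, with 12 of 35 positive and no call (0).

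In resistant tumours no member passed for anti-PD-1 against IgG (limma, 0 of 35, with 0 at an unadjusted p under 0.05), with a median of 0.18 and 25 of 35 positive. None of the 15493 genes passed either (0%), and 738 had an unadjusted p under 0.05. Zbp1 gave 0.26 (SE 0.47, adjusted p = 0.938), Bst2 0.49 (SE 0.49, adjusted p = 0.902) and Oasl2 0.40 (SE 0.75, adjusted p = 0.938) in these tumours. The difference between the lines in the response to anti-PD-1 was tested by the interaction, for which no member passed (limma, 0 of 35, and 0 at an unadjusted p under 0.05) and no gene of the whole array did (0%, with 2713 at an unadjusted p under 0.05). The smallest adjusted p among the members was 0.286, and their median interaction was -0.35, with 29 of 35 negative. Adar gave an interaction of -0.24 (SE 0.11, adjusted p = 0.286), Sp100 of -1.18 (SE 0.65, adjusted p = 0.358) and Zbp1 of -1.04 (SE 0.67, adjusted p = 0.43).

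The number of members that passed depended on which arrays entered, and on more than those that stood apart. Without parental IgG replicate 1, 19 members were lower in resistant tumours under IgG (5.45% of all genes) and 31 in the average (14.5%). The 19 included the 2 genes called with all arrays, and the median under IgG was -0.85. Without parental anti-PD-1 replicate 3, 5 members were lower under anti-PD-1 (Adar, Eif2ak2, Oas2, Stat2 and Zbp1; 10.3% of all genes) and 18 in the average (15.9%), and 3 under IgG. Leaving out resistant anti-PD-1 replicate 1, resistant anti-PD-1 replicate 2 or parental anti-PD-1 replicate 2 left 4, 5 and 5 members lower under anti-PD-1. The share of all genes is not given for these fits. Without both parental IgG replicate 1 and parental anti-PD-1 replicate 3, 23 members were lower under IgG (8.23% of all genes), 13 under anti-PD-1 (11.8%) and 30 in the average (15.9%), and no member was higher in any of the 3. The median without both was -0.85 under IgG, -0.78 under anti-PD-1 and -0.79 in the average. Of the 18 members that passed under anti-PD-1, 4 did so whichever array was left out (Adar, Oas2, Stat2 and Zbp1), as did 1 of 2 under IgG (Adar) and 14 of 24 in the average. Eif2ak2 lost its call under anti-PD-1 without resistant anti-PD-1 replicate 1, and the other 13 lost it whichever of resistant replicates 1 and 2 and parental replicates 2 and 3 of that antibody was left out. All 24 calls in the average remained without both arrays, which stood apart in the values of these same members.

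**Figure D4:**
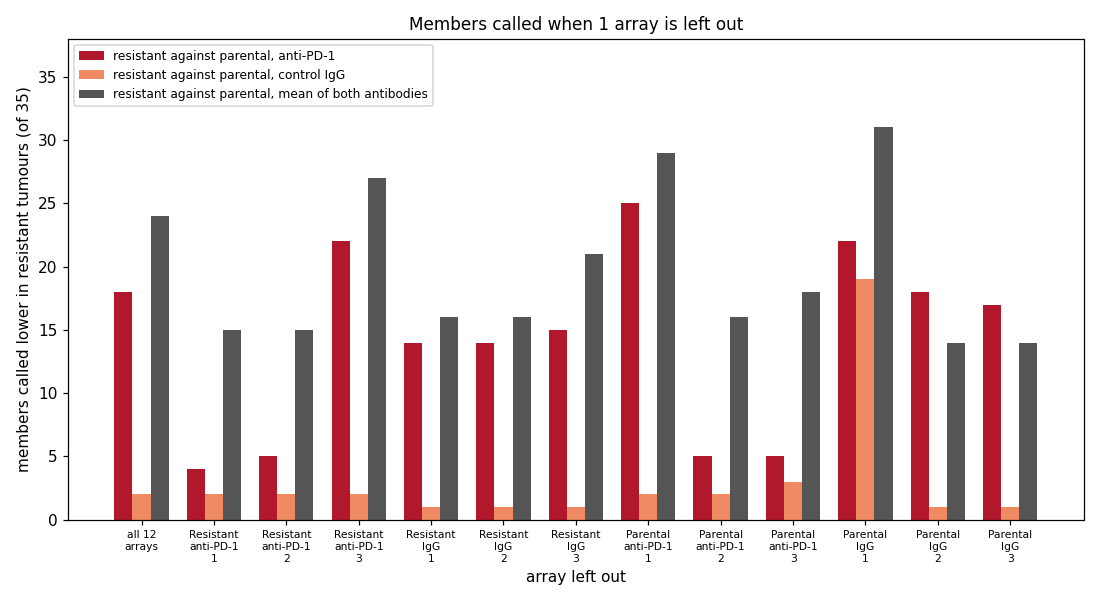
Number of the 35 members that were lower in resistant tumours in each comparison of the lines, with all 12 arrays and with each array left out in turn. Under IgG the number is 2 with all arrays and 19 without parental IgG replicate 1, and under anti-PD-1 it is 18 with all arrays and between 4 and 25 with 1 left out.

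The genes that make and carry the interferon signal were examined beside the members, from lists chosen for the pathway. Of 18 listed ligand genes 9 had a probe set and 7 were tested, with 5 of the 9 above the dim threshold of 3.32 on all arrays. Ifnz had the highest level, 5.33 ± 0.24 in resistant and 5.25 ± 0.13 in parental tumours (SD, n = 6 each), and Ifna11 and Ifnab were below the threshold on all arrays. Ifnb1, the interferon beta gene, averaged 4.06 ± 0.12 in resistant and 3.95 ± 0.18 in parental tumours (SD, n = 6 each) and did not pass at 0.11 (SE 0.09, adjusted p = 0.367). Ifna4, Ifna5 and Ifna9 were higher in resistant tumours in the average, by 0.42, 0.28 and 0.21, where 25.2% of all genes tested were higher. Ifna5 was higher by 0.37 under anti-PD-1 too, as were 21.6% of all genes. Ifna4 was below the dim threshold on all 6 parental arrays and on 3 of 6 resistant arrays, so its difference rests partly on values that are not above it.

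The receptor subunits did not pass, with Ifnar1 at 7.53 ± 0.04 in resistant and 7.56 ± 0.11 in parental tumours and Ifnar2 at 7.79 ± 0.10 and 7.90 ± 0.23 (SD, n = 6 each). Their kinases differed in opposite directions. Jak1 was higher in resistant tumours, by 0.46 (SE 0.11, adjusted p = 0.0101) under anti-PD-1 and 0.68 (SE 0.11, adjusted p = 0.00321) under IgG. Tyk2 was lower, at -0.41 (SE 0.07, adjusted p = 0.00224) and -0.38 (SE 0.07, adjusted p = 0.00746) under the same antibodies. The feedback inhibitor gene Socs3 was lower under anti-PD-1 at -0.78 (SE 0.14, adjusted p = 0.00195) and rose after anti-PD-1 in parental tumours by 0.70 (SE 0.14, adjusted p = 0.0314). The phosphatase gene Ptpn6, expressed mainly in blood cells, was lower under both antibodies, at -0.60 under anti-PD-1 and -0.56 under IgG. In all, 4 of the 9 tested genes of this chain were lower and 1 was higher under anti-PD-1. Among all genes 11.9% were lower and 21.6% higher in that comparison.

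Upstream of interferon, 7 of 16 genes of nucleic acid sensing were lower in resistant tumours and 1 was higher under anti-PD-1. Under IgG 3 were lower and 1 higher. Of all genes, 11.9% were lower and 21.6% higher under anti-PD-1, and 7.31% lower and 8.93% higher under IgG. Sting1, the adaptor of cytosolic DNA sensing, differed by -0.99 (SE 0.19, adjusted p = 0.00306) under anti-PD-1 and -0.76 (SE 0.19, adjusted p = 0.0237) under IgG. Cgas, the sensor that feeds it, did not pass, at 5.39 ± 0.10 in resistant and 5.50 ± 0.32 in parental tumours (SD, n = 6 each). Ikbke, a kinase that activates interferon regulatory factors, was lower by a similar size, at -0.99 (SE 0.16, adjusted p = 0.00125) and -0.73 (SE 0.16, adjusted p = 0.0138) under the same antibodies. Trim25, which promotes signalling by the RNA sensor RIG-I, was lower at -0.62 and -0.39, and Ddx58, the gene of RIG-I, at -0.78 (SE 0.21, adjusted p = 0.0158) under anti-PD-1. Irf3, the factor that starts interferon beta transcription, was higher, by 0.27 and 0.29.

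Of 43 further interferon stimulated genes tested, 14 were lower and 4 higher in resistant tumours under anti-PD-1, 2 lower and 1 higher under IgG, and 21 lower and 4 higher in the average. Of all genes, 11.9%, 7.31% and 15.0% were lower and 21.6%, 8.93% and 25.2% higher in these comparisons. Their median difference under anti-PD-1 was -0.52. Helz2, Parp11 and Znfx1 were among the lower genes, with -0.85, -0.66 and -0.50 in the average. Ifitm1, a relative of Ifitm3 that acts at the cell surface, went the other way. It stood at 10.05 ± 0.20 in resistant and 8.88 ± 0.27 in parental tumours (SD, n = 6 each), a difference of 1.23 (SE 0.17, adjusted p = 0.000438) under anti-PD-1 and 1.11 (SE 0.17, adjusted p = 0.00187) under IgG. The chemokine gene Cxcl10, which attracts T cells and responds to both kinds of interferon, was at 5.89 ± 1.40 in resistant and 8.43 ± 1.21 in parental tumours and differed by -2.54 (SE 0.67, adjusted p = 0.0114) in the average.

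Most interferon gamma response genes were lower in resistant tumours under anti-PD-1, as were some markers of immune cells. Of 23 genes listed as interferon gamma response genes, 18 were lower in resistant tumours under anti-PD-1, 4 under IgG and 20 in the average. Among all genes 11.9%, 7.31% and 15.0% were lower in these comparisons. The medians of the 23 genes were -1.96, -1.51 and -1.78. The list also holds Ifng, the gene of interferon gamma itself, and its receptor genes Ifngr1 and Ifngr2. Ifng stood at 3.28 ± 0.33 in resistant and 4.72 ± 0.98 in parental tumours (SD, n = 6 each), where the dim threshold is 3.32. The mean of this list ran from 6.22 to 8.71 over the 6 resistant arrays and from 7.64 to 10.02 over the 6 parental arrays, with 7.64 on parental IgG replicate 1 and 8.71 on resistant anti-PD-1 replicate 3. Cd274, which encodes the ligand PD-L1, differed by -2.91 (SE 0.55, adjusted p = 0.00255) under anti-PD-1, and Cd74, the invariant chain of class II antigen presentation, by -1.89 (SE 0.41, adjusted p = 0.00556) under anti-PD-1 and -1.67 (SE 0.41, adjusted p = 0.0213) under IgG. The mean of 9 T and NK cell markers was 4.31 to 4.83 on resistant and 4.48 to 5.97 on parental arrays. Of these 9, Gzmb, Nkg7 and Cd3g were lower under anti-PD-1, at -2.21, -1.78 and -1.67. None of the 9 was at or below the dim threshold on all arrays. Of 6 conventional dendritic cell markers tested, Itgax and Ccr7 were lower under anti-PD-1. All 6 differences were negative with a median of -0.41, and the groups did not overlap for 4. Among all genes 15.8% did not overlap in that direction under anti-PD-1 and 11.9% were lower. Of 9 macrophage and monocyte markers, Csf1r and Itgam were lower under anti-PD-1 and 7 differences were negative, with a median of -0.49. Under IgG the medians of these lists were 0.18 and 0.11, with 1 dendritic cell marker lower and 1 macrophage and monocyte marker higher. Of the 9 T and NK cell markers, 1 was lower under IgG and 5 in the average. Among all genes 7.31% were lower and 8.93% higher under IgG, and 15.0% were lower in the average. The part of these cells in the differences of the members was not tested.

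**Figure D5:**
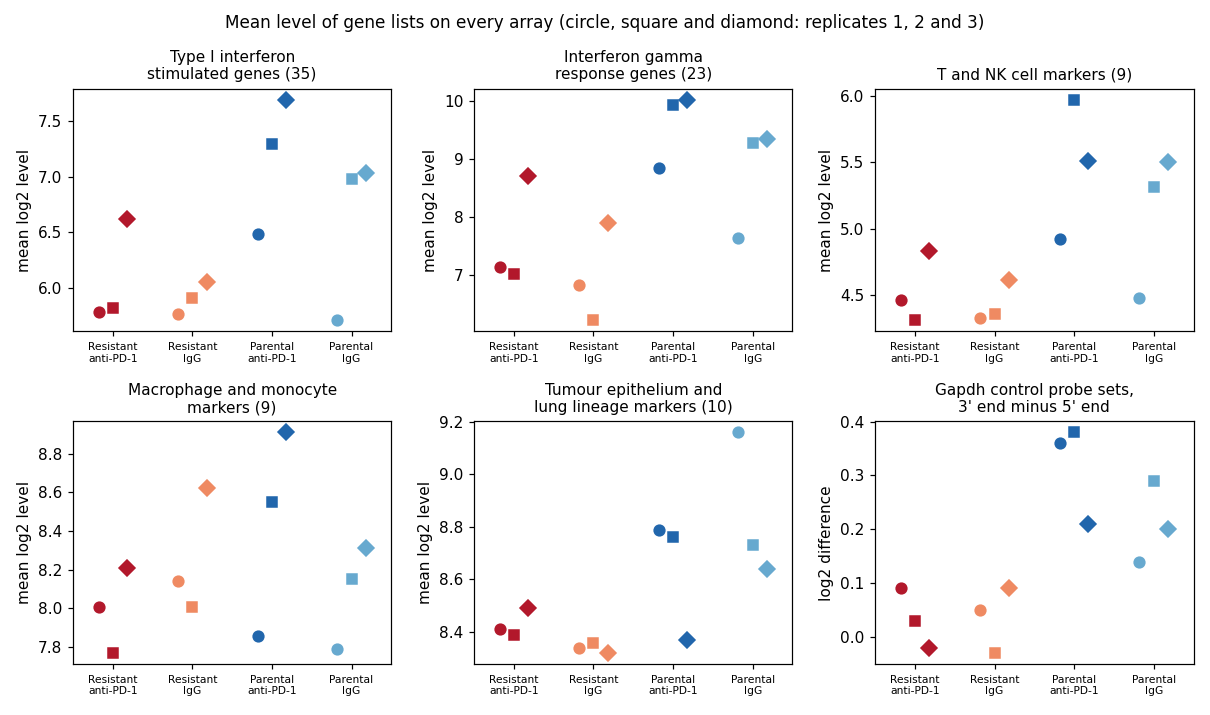
Mean log2 level per array of the 35 members, the interferon gamma response genes and 3 cell marker lists, and the log2 difference between the ends of Gapdh, by group with 1 point per array. The parental array with the lowest mean of the members (5.71) also has the lowest parental means of interferon gamma response genes (7.64) and of T and NK cell markers (4.48) and the highest of epithelial and lung markers (9.16).

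The labelled tissue was checked by 10 epithelial and lung lineage markers. All 10 were above the dim threshold on all arrays, with Krt8 at 13.20 in resistant and 13.38 in parental tumours, while the lung factor Nkx2-1 was dim at 3.91 and 4.01. Resistant tumours had 3 of these 10 lower and 1 higher under anti-PD-1, and 4 lower and 0 higher under IgG. In the average 4 were lower and 2 higher. Under IgG 2 of 6 endothelial, 1 of 8 fibroblast and 1 of 6 adipocyte markers were higher. Lower under anti-PD-1 were 1 of 8 fibroblast and 1 of 6 neutrophil markers. Of all genes, 11.9% were lower and 21.6% higher under anti-PD-1, 7.31% and 8.93% under IgG, and 15.0% and 25.2% in the average. Parental IgG replicate 1 had the highest mean of these epithelial and lung markers, 9.16, against 8.32 to 8.49 on resistant and 8.37 to 8.79 on the other parental arrays, and a mean of 10 skeletal muscle markers of 6.88. This muscle mean was 6.46, 9.56 and 9.08 on resistant arrays under anti-PD-1 and 9.97, 9.77 and 10.52 under IgG, against 9.97, 10.54 and 11.82 on parental arrays under anti-PD-1 and 6.88, 11.19 and 10.35 under IgG. The groups did not overlap under anti-PD-1 for this mean or for 7 of the 10 markers, where 15.8% of all genes did so in that direction. Parental anti-PD-1 replicate 3 had the highest muscle mean (11.82) and the highest mean of neutrophil markers (7.19). RNA quality differed between the lines, where control probe sets at the 3′ end of Gapdh exceeded those at the 5′ end by 0.03 ± 0.05 in resistant and 0.26 ± 0.10 in parental tumours (SD, n = 6 each) and those of actin by 0.48 ± 0.08 and 0.75 ± 0.11. The part of tissue content and RNA quality in the differences of the members was not tested.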

How the data were processed

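RNA from whole tumours was hybridized to 12 Affymetrix arrays for mouse transcripts after biotin labelling by in vitro transcription, per the labels' protocols. The values the authors deposited are on a log2 scale, as judged from their range of 1.62 to 13.88. How background was corrected and arrays were normalized is not stated in the labels or files used. Array lower quartiles lay between 3.27 and 3.36, and no pair of arrays was identical (0 pairs). Arrays have no read depth, and precision is limited by their number.

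Of 45101 probe sets, 64 were controls, 34945 carried 1 gene, 932 several and 9160 none. Those with 1 gene were used, named through a mouse gene table of GRCm38.p6. The probe set with the highest mean stood for its gene. Genes with at least 3 arrays above the 25th percentile of all values (3.32) were kept, which left 15493. All 35 members with a value passed this filter, 32 of them above it on all arrays. The other 3, Ddx60, Mx1 and Oasl2, fell below it on at least 1 array.

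Differences were fitted with limma 3.58.1 in R 4.3.3, with a mean per group over 12 arrays (8 residual and 2.98 prior degrees of freedom). The tests are two-sided, with p-values adjusted by Benjamini-Hochberg over all genes within each of 6 comparisons, 1 of them the average of both antibodies. The median standard error of a difference between 2 groups was 0.117. The fit was tested on simulated data. Groups came from the sample titles.

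The members and lists were chosen with earlier results of these data known. Every member that passed in at least 1 comparison, or was among the 2 largest average line differences in its role, is given on each array. The others are given by range and count, except Ifi27l2a. From the 15 other lists, only some of the genes that passed are named, chosen from the 4 smallest p-values per list and comparison. Fixed genes such as Ifnb1 and Cxcl10 are named as well. Among members, 16 have 25 further probe sets. Promoter sequences are from RefSeq, GRCm38.p6.

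Arrays are numbered 1 to 3 in every group. Deviations of same-numbered arrays correlated above 0.1 for all 3 numbers between resistant anti-PD-1 and IgG tumours (0.11, 0.12 and 0.17), and the fit with the number as a block also made no call there (0). Other alternatives concerned the filter on dim genes, the probe set per gene, normalization, spread, array weights, the groups fitted and the arrays left out.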

Additional observations from a re-analysis of the deposited data

How the results depend on the processing

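Among the 35 members, 2 were lower in resistant tumours under IgG, against 22 with array weights, 23 without both parental IgG replicate 1 and parental anti-PD-1 replicate 3, 14 with the replicate block and 1 to 19 with 1 array left out. Under anti-PD-1 the number was 18, with 4 to 25 with 1 array left out and 26 with the replicate block. In the average of both antibodies it was 24, with 14 to 31 and 28. For parental tumours, anti-PD-1 against IgG, it was 1, against 0 with the mean of probe sets, the probe set of largest variance, arrays centred on the median, only the groups contrasted or without both arrays, 4 with the replicate block and 0 to 2 with 1 array left out. For the same contrast in resistant tumours, and for the interaction, it was 0 under every alternative run. Only the groups contrasted gives no value for the interaction and the average, which need all groups. The share of all genes that passed is not given for array weights, the replicate block or most of the single arrays left out. Whether those counts of members rose or fell with the counts over all genes is therefore not shown. In the paired check, 8 of 12 arrays correlated best with an array of their own number, and all 3 same-numbered pairs exceeded 0.1 between resistant anti-PD-1 and parental IgG arrays (0.41, 0.18 and 0.44). Between the lines they were 0.27, 0.09 and 0.22 under anti-PD-1 and 0.17, -0.21 and 0.25 under IgG, and between the antibodies in parental tumours 0.64, 0.06 and 0.44. In these 3 comparisons replicate 2 stayed under 0.1, so whether the numbers pair the arrays is not settled.

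Directions turned for small differences. Under IgG, Ifitm3 was -0.19 with array weights and -0.12 without both arrays, and Oasl1 was -0.04 without both. With 1 array left out, Ifitm3 ran from -0.12 to 0.55, Oasl1 from -0.04 to 0.27, Ddx60 from -0.36 to 0.02, Trim30a from -0.60 to 0.04 and Herc6 from -0.38 to 0.02. Under anti-PD-1, Ifi27l2a was 0.01 with arrays centred on the median, 0.20 with array weights, 0.56 without both and from -0.74 to 0.58 with 1 left out. In the average, Oasl1 was 0.06 with centring, 0.03 with quantile normalization and from -0.11 to 0.04 with 1 left out, and Ifitm3 from -0.36 to 0.09. For anti-PD-1 against IgG in parental tumours, the median of the members was -0.10 without both arrays and 0.16 to 0.95 with 1 left out, and Oasl2 was -0.01 and 0.40 to 1.73. The median interaction was 0.15 without both and -0.66 to 0.00 with 1 left out. In resistant tumours the median response ran from -0.08 to 0.32 with 1 left out. Leaving out arrays also leaves fewer to estimate the spread, and otherwise the cause was not tested.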

Other observations

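The type I interferon genes lie together on mouse chromosome 4. The gene nearest to Cdkn2a among them is Ifne, with 1 gene, Mtap, between. Cdkn2a, chosen here after its values were seen, encodes inhibitors of the cell cycle. It stood at 3.91, 3.97 and 3.49 on resistant arrays under anti-PD-1 and 3.01, 3.94 and 2.92 under IgG, against 7.57, 7.09 and 7.13 on parental arrays under anti-PD-1 and 6.81, 7.00 and 7.24 under IgG. All 6 resistant arrays were below all 6 parental arrays, with an average difference of -3.60 (limma, SE 0.18, adjusted p = 1.02e-06). Of the 7 type I interferon ligand genes tested, 0 were lower and 3 higher in the average. Among all genes 15.0% were lower and 25.2% higher there. A link between Cdkn2a and the interferon genes was not tested.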
